A study of Mus musculus with 39 samples.

Results

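Brains of mice taken 7 days after soman at 1/2 of the LD50 were compared with brains of mice given saline. The comparison rests on 3 soman libraries and 3 saline libraries, chosen by their labels, out of 39 libraries in 13 groups. Soman, an organophosphorus nerve agent, inhibits acetylcholinesterase, so that acetylcholine released at synapses is no longer cleared, and the LD50 is the median lethal dose. Doses were fractions of it (1/10, 1/5 and 1/2), given under the skin, and brains were collected at day 1, 3, 7 or 14, with 3 libraries in each of the 12 soman groups and in the saline group. Beside saline, 3 other groups served here as references for the day 7, 1/2 LD50 libraries. These were 1/5 LD50 at day 7, 1/2 LD50 at day 3 and 1/2 LD50 at day 14. The labels name the tissue only as brain. They do not give strain, sex, age, the number of injections, the animals behind a library or the day on which saline brains were taken. A difference from saline therefore includes any difference between collection days. The p-values measure the spread between libraries of the same group, estimated over all 39 libraries, which may be technical.

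A few kinds of genes carry most of the results. Proteins that enter the secretory pathway fold inside the endoplasmic reticulum (ER) with the help of chaperones. The unfolded protein response adjusts the amount of these chaperones to the load of unfolded protein through the sensors IRE1, PERK and ATF6 and through the transcription factor XBP1. Immediate early genes such as Fos and Arc are transcribed within minutes of neuronal firing and serve as a record of recent activity. Meningeal fibroblasts, the cells of the brain's coverings, make collagens, the growth factor Igf2 and solute carriers of their own, and reach a brain sample only as far as the coverings are left on it.

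Values are FPKM, sequenced fragments scaled by transcript length and library size, so levels of different genes can be set side by side. Changes are differences of log2(FPKM + 1), which understates the change of genes near or below 1 FPKM, and a gene is said to have risen or fallen only at an adjusted p below 0.05 in limma over all 14701 genes tested. Read depth is unknown. Genes that mark brain tissue were high in both groups: Snap25, a protein of synaptic vesicle fusion, stood at 695, 690 and 691 FPKM in the soman libraries and 664, 640 and 719 in the saline libraries. Y-linked Ddx3y lay between 11.8 and 13.6 FPKM in the soman libraries and between 14.1 and 14.4 in saline, with Xist below 0.02 in all 6. The soman libraries listed more genes above 0 (29166, 29662 and 27899, against 26001, 25881 and 25731 in saline), and the excess lay among genes below 1 FPKM (15512, 15978 and 14232, against 12300, 12307 and 12111). The share of summed FPKM from the mitochondrial genome was between 11.6% and 13.2% in the soman libraries and between 7.17% and 11.9% in saline.

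One soman library stood apart. Replicate 1 held almost none of the transcripts that mark cerebellar neurons. Gabra6, a GABA receptor subunit of cerebellar granule cells, stood at 0.0247, 26.8 and 25.99 FPKM in the soman libraries and 69.1, 53.8 and 60.8 FPKM in the saline libraries. Pcp2, a Purkinje cell gene, stood at 0.261, 52.2 and 46.1 FPKM in soman and 89.9, 83.9 and 78.2 in saline. Replicates 2 and 3 of soman were also below every saline library. Among all 39 libraries Gabra6 was under 1 FPKM in 3, of which 2 belong to day 3 groups of other doses that are not compared here. In the other 36 it lay between 18.5 and 91.0. In whole-tissue RNA, fewer cells of a type and less RNA per cell cannot be told apart. Counts and calls that change without replicate 1 are given beside the results below.

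Against saline, 1234 genes of 14701 changed (8.39%). Of these 252 rose (1.71%) and 982 fell (6.68%). The changes were small: the median size among the falls was 0.36 on the log2 scale, and 8 of the 252 rises and 20 of the 982 falls exceeded a doubling or halving of FPKM + 1. All 3 soman libraries lay above all 3 saline libraries for 1982 genes (13.5%) and below them for 2752 (18.7%). Without soman replicate 1 the count was 277 genes (22 rose, 255 fell), of which 273 were among the 1234. Without saline replicate 1 it was 740, and without saline replicate 3 it was 515. In a fit of the 2 groups alone it was 556. With median-ratio scaling 431 genes rose and 925 fell.

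**Figure D1:**
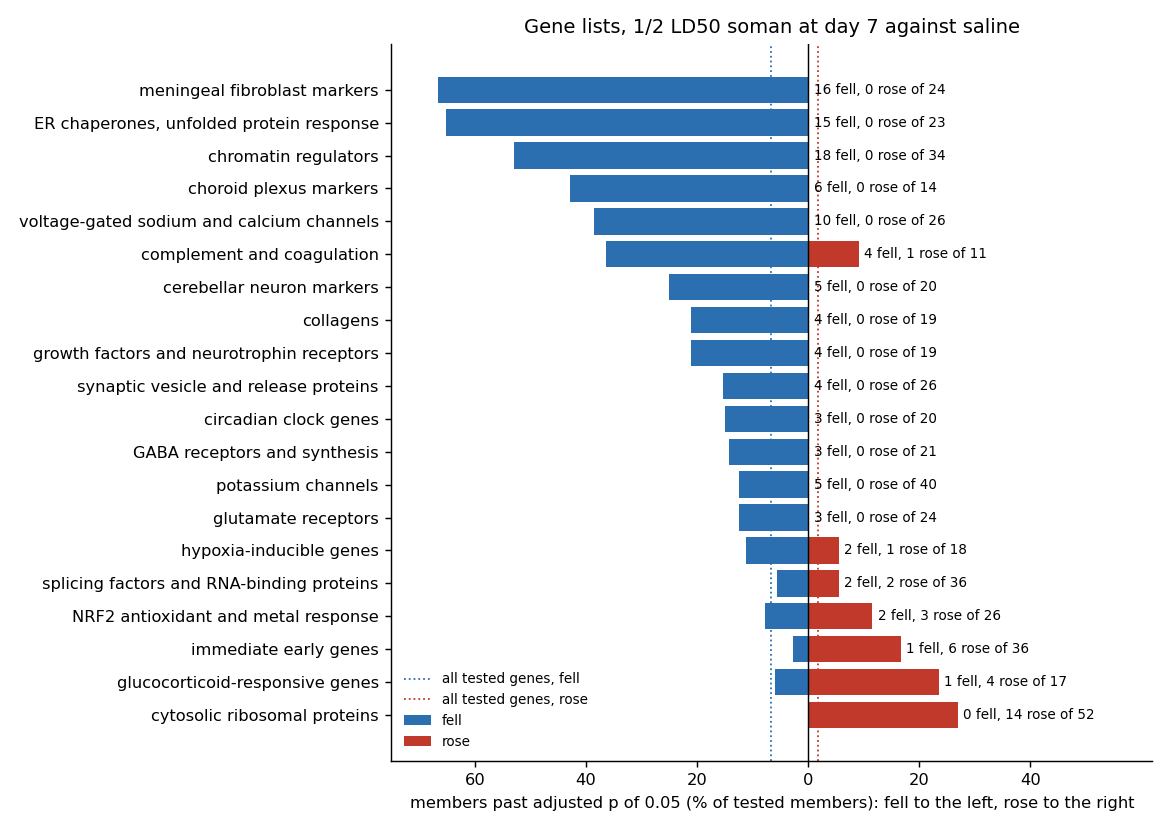
Share of the tested members of each gene list that fell (blue, to the left) or rose (red, to the right) at an adjusted p below 0.05 in the day 7, 1/2 LD50 libraries relative to saline (3 libraries each). Lists with 10 or more tested members and 3 or more calls are shown, with counts beside the bars and the shares over all tested genes (6.68% fell, 1.71% rose) as dotted lines. Meningeal fibroblast markers fell in 16 of 24 members and ER chaperones in 15 of 23.

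The genes of cholinergic transmission itself showed little change. Ache, the target of soman, had 32.5, 28.0 and 39.9 FPKM in the soman libraries and 34.9, 31.5 and 30.2 FPKM in the saline libraries (log2 change 0.04 ± 0.13 SE, adjusted p = 0.89). Bche, which encodes butyrylcholinesterase, had 0.907, 1.41 and 1.36 FPKM in soman and 1.04, 0.807 and 0.926 in saline (adjusted p = 0.334). Chat, the enzyme that makes acetylcholine, had 1.65, 1.30 and 2.53 FPKM in soman and 1.56, 1.87 and 2.16 in saline (adjusted p = 0.924). For each of these genes the groups overlapped. None of the 6 tested genes of cholinesterases and cholinergic terminals passed in limma or in a fit of the 2 groups alone. In limma 1 of the 6 had an unadjusted p below 0.05, beside 3563 of all 14701 genes. Among 10 tested acetylcholine receptor genes 1 fell, Chrnb2, the beta2 nicotinic subunit (6.68% of all genes fell). It had 7.90, 8.79 and 9.32 FPKM in soman and 10.8, 10.9 and 10.4 in saline (log2 change -0.28 ± 0.09, adjusted p = 0.0421). It did not pass without soman replicate 1 (adjusted p = 0.281) or in a fit of the 2 groups alone (adjusted p = 0.0721).

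ER chaperones and genes of the unfolded protein response were lower 7 days after 1/2 LD50 soman. Of 23 tested members 15 fell (6.68% of all genes did) and none rose (1.71%). In every soman library 19 were below all of saline (18.7% of all genes were). The median log2 change was -0.31, against -0.00 over all tested genes. Hspa5, which encodes BiP, the main chaperone of the ER lumen, had 103, 93.5 and 99.6 FPKM in the soman libraries and 175, 168 and 181 FPKM in the saline libraries. The groups did not overlap, and the log2 change was -0.82 ± 0.13 (SE, adjusted p = 0.000301). Pdia4, a protein disulfide isomerase that forms and reshuffles disulfide bonds, had 15.5, 14.1 and 16.0 FPKM in soman and 24.2, 26.2 and 26.6 in saline (-0.72 ± 0.10, adjusted p = 0.000153). Sdf2l1, a component of the BiP chaperone cycle, had 5.85, 4.67 and 5.46 FPKM in soman and 11.0, 12.0 and 11.0 in saline (-0.97 ± 0.21, adjusted p = 0.00369).

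Several further members with different roles in the ER were lower by similar amounts. Dnajc3, a co-chaperone of BiP, had 8.47, 8.73 and 9.60 FPKM in soman and 14.1, 13.2 and 14.8 in saline (-0.60 ± 0.09, adjusted p = 0.000301). Xbp1, the transcription factor of the IRE1 arm, had 20.4, 19.8 and 20.9 FPKM in soman and 37.7, 28.9 and 32.3 in saline (-0.66 ± 0.11, adjusted p = 0.000461). Creld2 and Manf, secreted proteins induced by ER stress, changed by -0.59 ± 0.13 and -0.60 ± 0.10 (adjusted p = 0.00329 and 0.000469). The other members that fell changed less. Hyou1, Herpud1, Sel1l, Hsp90b1, Dnajb11, Pdia3, Calr and Syvn1 had log2 changes between -0.41 and -0.19. Of genes of the PERK arm, none of the following passed. Atf4, its transcription factor, changed by 0.17 ± 0.08 (adjusted p = 0.169), Ddit3, a pro-apoptotic factor, by -0.32 ± 0.14 (adjusted p = 0.136), and Chac1, a target of that arm, by 0.18 ± 0.14 (adjusted p = 0.447). With median-ratio scaling 12 members fell and Atf4 rose. The count of falls was 12 without soman replicate 1, where Herpud1, Dnajb11 and Syvn1 did not pass, and 12 with the cerebellar marker level of each library as a covariate. It was 15 after removal of the length trend of each library, and 6 without the 7 libraries that lie between the other libraries of their group, among them saline replicate 3. Hspa5, Pdia4, Dnajc3 and Xbp1 passed under every alternative fit.

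The promoters of these genes are shown because ATF6 and XBP1 act through a known element there. The ER stress response element (ERSE) consists of CCAAT and CCACG with 9 bases of any kind between them, and a shorter form, ERSE-II, consists of ATTGG and CCACG with 1 base of any kind between them. Promoter sequences from 250 bases before to 50 bases after the gene's start were taken from RefSeq on build GRCm38.p6, and 20 of the 23 tested members had an entry. Both elements were searched on both strands. ERSE was found in 8 of the 20, against 39 of 32851 promoters of all genes (0.119%), and ERSE-II in 2 of the 20, against 12 of 32851 (0.0365%). The list was written from known genes of this response, so an excess over all promoters is a trait of the list and no result of these data. Of the 13 members with an entry that fell, 8 held a match to either element, as did 2 of the 7 that did not pass the test. Whether a match goes with a fall was not tested. In the following lines the match is in capitals and the sequence runs 5' to 3' along the gene's strand. Hspa5 and Dnajc3 carry ERSE in the forward direction, Creld2 carries it on the opposite strand, and Sdf2l1 is shown as a member that fell with no match in this window.
Hspa5, chr2:34771840-34772139, plus strand: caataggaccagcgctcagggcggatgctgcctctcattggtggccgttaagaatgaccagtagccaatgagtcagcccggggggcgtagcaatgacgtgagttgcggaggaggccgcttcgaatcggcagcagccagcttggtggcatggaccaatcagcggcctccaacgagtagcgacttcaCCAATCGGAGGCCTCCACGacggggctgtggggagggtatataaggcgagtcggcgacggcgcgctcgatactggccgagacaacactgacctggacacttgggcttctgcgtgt
Dnajc3, chr14:118937682-118937981, plus strand: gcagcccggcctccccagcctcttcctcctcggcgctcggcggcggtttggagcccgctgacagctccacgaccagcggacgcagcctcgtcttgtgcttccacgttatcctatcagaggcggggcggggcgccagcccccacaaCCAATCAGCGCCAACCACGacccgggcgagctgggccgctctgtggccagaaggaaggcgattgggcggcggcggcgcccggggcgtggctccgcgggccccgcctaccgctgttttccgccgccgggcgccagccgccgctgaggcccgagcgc
Creld2, chr15:88819396-88819695, plus strand: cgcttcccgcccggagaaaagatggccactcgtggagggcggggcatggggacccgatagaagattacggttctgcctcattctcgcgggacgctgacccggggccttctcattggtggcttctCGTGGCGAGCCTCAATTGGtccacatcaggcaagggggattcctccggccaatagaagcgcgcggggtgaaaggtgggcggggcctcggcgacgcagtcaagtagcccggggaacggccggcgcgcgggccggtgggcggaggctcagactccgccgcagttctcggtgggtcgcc
Sdf2l1, chr16:17132334-17132633, minus strand: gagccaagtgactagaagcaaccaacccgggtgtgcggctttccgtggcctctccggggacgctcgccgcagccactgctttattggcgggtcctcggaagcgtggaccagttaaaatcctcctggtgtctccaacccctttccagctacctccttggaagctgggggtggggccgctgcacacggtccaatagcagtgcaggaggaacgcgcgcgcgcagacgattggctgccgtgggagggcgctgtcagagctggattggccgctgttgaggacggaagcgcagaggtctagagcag

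The matches begin 65 bases before the start in Hspa5, 105 bases before it in Dnajc3 and 126 bases before it in Creld2. Hsp90b1, the ER member of the HSP90 family, holds 1 match on each strand. Calr, a lectin chaperone, and Syvn1, a ubiquitin ligase of ER-associated degradation, hold 1 each, as do Canx and Pdia6, which did not pass against saline. Herpud1 and Dnajb11 hold ERSE-II. A match is a run of letters and was not tested for binding or effect, and no match in this window says nothing of elements elsewhere.

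At day 7 the chaperones were lower at 1/2 LD50 than at 1/5 LD50. Set directly against 1/5 LD50 at day 7, the 1/2 LD50 libraries differed in 17 of 14701 genes (0.116%), of which 2 were higher and 15 lower (0.102%). Of the 15, 9 belong to the list of 23: Pdia4, Manf, Creld2, Hspa5, Sdf2l1, Xbp1, Dnajb11, Calr and Pdia6. All 3 libraries were below those of 1/5 LD50 for 18 of the 23 (12% of all genes) and above them for 0 (5.5%). Hspa5 had 103, 93.5 and 99.6 FPKM at 1/2 LD50 and 185, 184 and 155 FPKM at 1/5 LD50 (log2 difference -0.82 ± 0.13, adjusted p = 0.00133). Sdf2l1 had 5.85, 4.67 and 5.46 FPKM at 1/2 LD50 and 15.7, 13.6 and 13.1 at 1/5 LD50 (-1.26 ± 0.21, adjusted p = 0.00254). In both genes the lowest library at 1/5 LD50 stood well above the highest at 1/2 LD50. Creld2 had 10.4, 9.15 and 10.5 FPKM at 1/2 LD50 and 19.7, 20.3 and 17.0 at 1/5 LD50 (-0.86 ± 0.13, adjusted p = 0.000741). The count over all genes was 10 without replicate 2 of 1/2 LD50 and 8 without replicate 2 of 1/5 LD50. The count in the list was between 6 and 9 when any 1 of the 6 libraries was left out, and 3 in a fit of these 2 groups alone, where Creld2, Sdf2l1 and Manf still passed.

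The 6 other genes below their level at 1/5 LD50 were P4ha1, Per2, Insl5, Dok3, Zbtb40 and Zc3h11a. P4ha1, the catalytic subunit of the collagen prolyl hydroxylase of the ER, had 13.5, 13.2 and 13.5 FPKM at 1/2 LD50 and 16.5, 18.8 and 17.1 at 1/5 LD50 (-0.35 ± 0.07, adjusted p = 0.0116). It was also lower than saline, at 17.3, 15.1 and 16.2 FPKM (-0.25 ± 0.07, adjusted p = 0.0147), though not without soman replicate 1 (adjusted p = 0.068). The 2 genes above their level at 1/5 LD50 were Hecw2, a ubiquitin ligase (0.46 ± 0.07, adjusted p = 0.00149), and Pak5, a kinase of neurons (0.41 ± 0.09, adjusted p = 0.0369). Pak5 passed in 4 of 16 alternative fits, and not without replicate 1 of 1/2 LD50 (adjusted p = 0.124). Hecw2 passed in 14 of 15. Neither passed against saline (adjusted p = 0.948 and 0.146).

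Across days at the same dose, the chaperones separated day 7 from day 14. Set against 1/2 LD50 at day 14, the day 7 libraries differed in 1216 genes (8.27%), with 437 higher (2.97%) and 779 lower (5.3%). Of the 23 chaperone genes 12 were lower and none higher. Hspa5 had 103, 93.5 and 99.6 FPKM at day 7 and 167, 187 and 179 at day 14 (-0.84 ± 0.13, adjusted p = 0.000241). Dnajc3 had 8.47, 8.73 and 9.60 FPKM at day 7 and 15.4, 17.3 and 15.3 at day 14 (-0.78 ± 0.09, adjusted p = 3.25e-05). Set against day 3 at the same dose, none of the 23 passed in limma or in a fit of the 2 groups alone. In limma 1 had an unadjusted p below 0.05 (1256 of all 14701 genes did), and the median log2 difference was 0.05. Mean Hspa5 was between 75.9 and 120.6 FPKM in the 3 groups of day 1, between 89.2 and 105.5 in those of day 3, and between 170.0 and 177.4 in those of day 14. It averaged 98.7 ± 4.81 FPKM at 1/2 LD50 of day 7 and 174.7 ± 6.69 in saline (SD, n = 3 each).

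**Figure D2:**
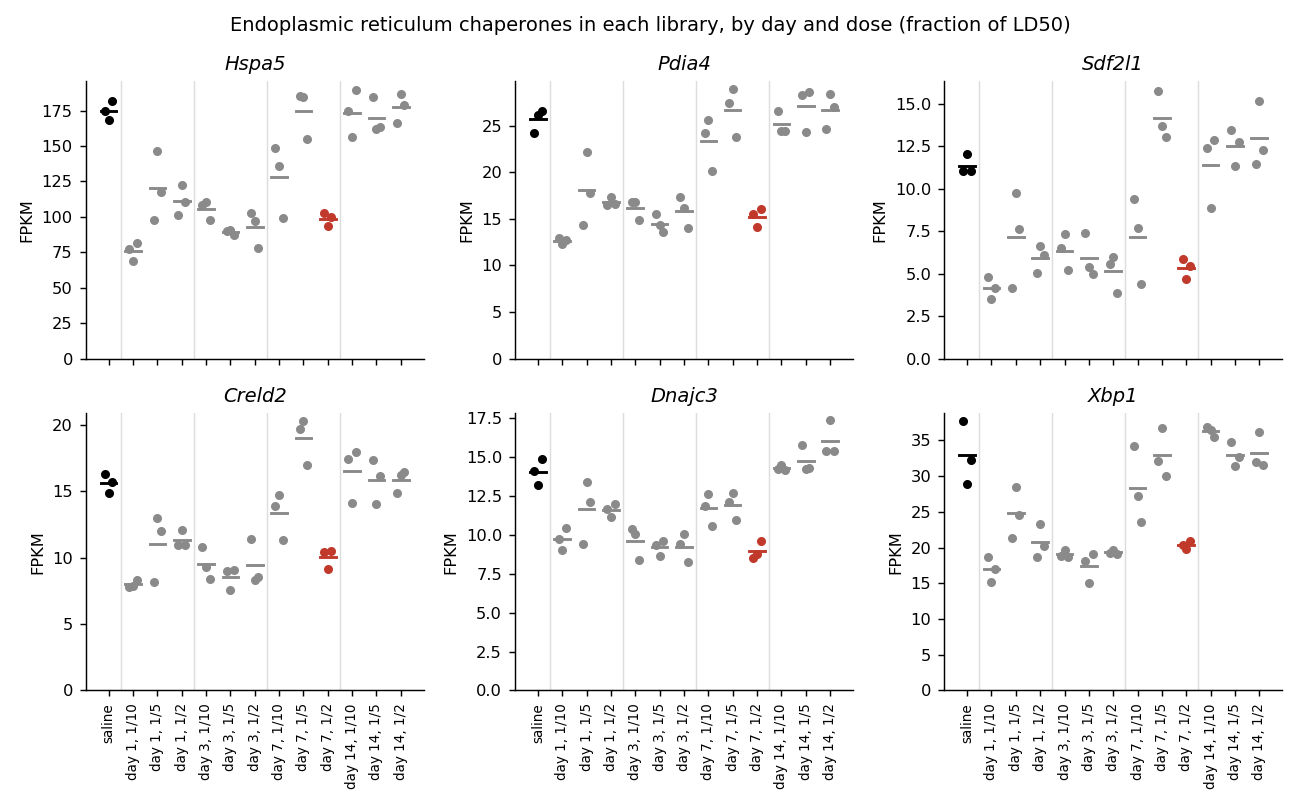
FPKM of 6 ER chaperone and unfolded protein response genes in every library, by group (points, replicates; bars, means of 3). The day 7, 1/2 LD50 libraries are red, saline black and the other groups grey, with doses as fractions of the LD50. For Hspa5 the red points lie between 93.5 and 103, below all saline points (168 to 181) and all points of 1/5 LD50 at day 7 (155 to 185).

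Some immediate early genes were higher 7 days after 1/2 LD50 soman. Of 36 tested members 6 rose and 1 fell, against 1.71% and 6.68% of all genes, with a median log2 change of 0.13. In every soman library 17 were above all of saline (13.5% of all genes were) and 3 below (18.7%). Klf2, a transcription factor of endothelium and immune cells, had 4.96, 5.66 and 5.28 FPKM in soman and 3.12, 2.38 and 2.49 in saline (0.79 ± 0.18, adjusted p = 0.0064). Fosb, a partner of Jun in the AP-1 factor, had 2.16, 1.88 and 2.10 FPKM in soman and 1.30, 1.18 and 1.02 in saline (0.49 ± 0.12, adjusted p = 0.0111). Gadd45b, a stress-induced gene of DNA demethylation, had 8.37, 7.57 and 7.69 FPKM in soman and 5.12, 5.84 and 5.06 in saline (0.49 ± 0.11, adjusted p = 0.00602).

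Btg2, Sik1 and Ccn1 also rose, by log2 changes of 0.46, 0.37 and 0.41. Dusp4, a phosphatase that switches off MAP kinases, fell by 0.38 ± 0.11 (adjusted p = 0.0277), and did not pass without soman replicate 1 (adjusted p = 0.247). The genes most used as activity markers did not pass. Arc, a regulator of synaptic receptor traffic, had 49.9, 62.9 and 44.9 FPKM in soman and 43.1, 38.967 and 37.6 in saline (adjusted p = 0.31). Fos had 11.4, 14.1 and 12.4 FPKM in soman and 12.7, 11.2 and 10.4 in saline (adjusted p = 0.777). Junb and Nr4a1 were above saline in all 3 soman libraries (adjusted p = 0.0532 and 0.0907). The count of rises was 1, Klf2, without soman replicate 1, 3 without soman replicate 2, saline replicate 2 or saline replicate 3, and 0 without the 7 libraries that lie between others.

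Most genes that separated day 7 from day 3 at this dose were immediate early genes. Of 14701 genes 13 differed (0.0884%), with 12 higher (0.0816%) and 1 lower (0.0068%) at day 7, and 10 of the 12 were immediate early genes: Arc, Fosb, Fosl2, Nr4a3, Fos, Nr4a1, Junb, Dusp1, Dusp6 and Npas4. Arc had 49.9, 62.9 and 44.9 FPKM at day 7 and 19.4, 14.6 and 18.7 at day 3 (1.52 ± 0.22, adjusted p = 0.000635). Fos had 11.4, 14.1 and 12.4 FPKM at day 7 and 4.46, 4.33 and 4.01 at day 3 (1.37 ± 0.23, adjusted p = 0.00531). Nr4a1, an orphan nuclear receptor, had 35.0, 36.7 and 29.3 FPKM at day 7 and 11.5, 13.3 and 16.8 at day 3 (1.23 ± 0.23, adjusted p = 0.0161). In each of the 3 genes the groups were far apart.

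Of the 36 tested members 27 were above day 3 in every day 7 library (3.38% of all genes were), none was below, and the median log2 difference was 0.47. The other genes higher at day 7 were LOC118567915 and A330023F24Rik, and Gnmt, a methyltransferase of glycine, was lower at day 7 (-0.81 ± 0.17, adjusted p = 0.0395), though not without replicate 1 of day 7 (adjusted p = 0.248). Fewer genes passed without some libraries: 8 without replicate 1 and 4 without replicate 2 of day 7, and 7 without replicate 1 of day 3. Without replicate 2 of day 3, 26 passed, 9 of them higher and 17 lower. In a fit of the 2 groups alone 1 gene passed. Among the 36 immediate early genes the 10 became 5 without replicate 1 and 3 without replicate 2 of day 7, 4 without replicate 1 of day 3, and 1 in that fit. Arc and Fos passed in 15 of 16 alternative fits each, Nr4a1 in 8 of 16, Junb in 6 of 16 and Npas4 in 5 of 15. Against 1/5 LD50 at day 7, none of the 36 members passed in limma or in a fit of those 2 groups alone. In limma 4 had an unadjusted p below 0.05, beside 1354 of all 14701 genes.

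**Figure D3:**
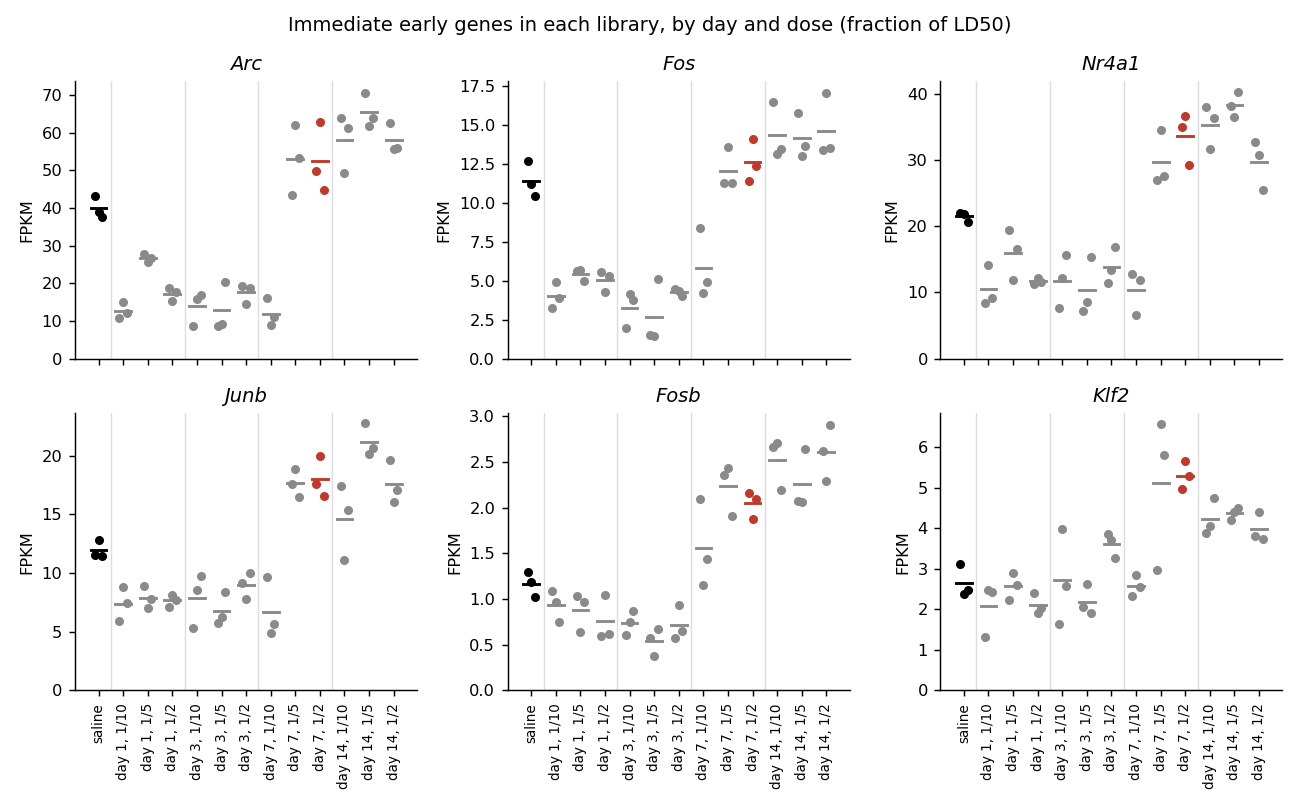
FPKM of 6 immediate early genes in every library, by group (points, replicates; bars, means of 3), with the day 7, 1/2 LD50 libraries in red and saline in black. Arc stands at 44.9 to 62.9 FPKM in the red libraries, 37.6 to 43.1 in saline and 14.6 to 19.4 at 1/2 LD50 of day 3.

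Markers of meningeal fibroblasts were lower 7 days after 1/2 LD50 soman. Of 24 tested members 16 fell (6.68% of all genes did) and none rose (1.71%). In every soman library 19 lay below all of saline (18.7% of all genes did), and the median log2 change was -0.54. Their summed level was 595 to 796 FPKM in the soman libraries and 931 to 1091 FPKM in saline. Igf2, the insulin-like growth factor of leptomeninges and choroid plexus, had 9.55, 7.83 and 11.8 FPKM in soman and 23.8, 20.2 and 22.0 in saline (-1.12 ± 0.13, adjusted p = 9.16e-06). Col3a1, a fibrillar collagen, had 1.90, 2.38 and 3.06 FPKM in soman and 6.52, 5.44 and 5.75 in saline (-1.01 ± 0.13, adjusted p = 4.62e-05). Slc13a4, a sulfate transporter of the meninges, had 2.21, 2.29 and 3.03 FPKM in soman and 5.96, 5.90 and 5.37 in saline (-0.95 ± 0.12, adjusted p = 2.57e-05). In all 3 genes even the highest soman library was below the lowest saline library.

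Col1a2, Slc47a1, Slc6a13, Slc6a20a, Ogn, Aldh1a2 and Slc22a6 also fell, with log2 changes between -0.99 and -0.63. Ptgds, the prostaglandin D synthase that is abundant in meninges, had 652, 460 and 528 FPKM in soman and 877, 737 and 740 in saline (-0.53 ± 0.14, adjusted p = 0.0178). Pdgfra and Foxc1 were close to saline, with log2 changes of -0.03 and -0.07. The count was 13 without soman replicate 1 and 11 without saline replicate 1, and 4 of 10 at a mean of 5 FPKM or more. Against 1/5 LD50 at day 7 none of the 24 passed in limma or in a fit of those 2 groups alone. In limma 2 had an unadjusted p below 0.05 (1354 of all 14701 genes did), and the median log2 difference was 0.00. Against day 14 the result was mixed, with 5 lower (5.3% of all genes were) and 1 higher, Slc22a8 (2.97%). Without replicate 1 of day 7, 1 was lower and none higher, and without its replicate 2, 2 were lower and 1 higher. None passed without replicate 2 of day 14. Igf2 had 9.55, 7.83 and 11.8 FPKM at day 7 and 13.1, 17.9 and 11.9 at day 14 (-0.51 ± 0.13, adjusted p = 0.0142), a difference that did not pass without replicate 1 of day 7 (adjusted p = 0.0741).

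Neighbouring lists fell in part. In a list of 19 tested collagens, which leaves out the meningeal markers Col1a1, Col1a2 and Col3a1, 4 fell (6.68% of all genes did). These were Col18a1, Col8a1, Col6a2 and Col12a1. They made up 21.1% of the list, which had a median transcript length of 6048 bases. Of the 2865 genes with the longest transcripts 23.4% fell. With the length trend removed 2 collagens fell, and the median log2 change of the list was 0.04, against -0.09 in the main fit. Col18a1, a basement membrane collagen, had 1.76, 3.64 and 4.58 FPKM in soman and 7.74, 6.79 and 6.46 in saline (-0.94 ± 0.25, adjusted p = 0.018). Of 11 complement and coagulation genes 4 fell, beside the same 6.68% of all genes. Thbd, the thrombin receptor thrombomodulin, had 2.23, 2.16 and 2.46 FPKM in soman and 3.93, 3.22 and 3.92 in saline (-0.51 ± 0.09, adjusted p = 0.000624). F3, tissue factor, rose by 0.36 ± 0.11 (adjusted p = 0.038). Without soman replicate 1, 1 collagen and 2 complement and coagulation genes fell and F3 did not pass.

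Choroid plexus markers fell in 6 of 14 tested members (6.68% of all genes fell), with a median log2 change of -0.52. Ttr, the transthyretin that the plexus secretes, had 237, 241 and 446 FPKM in soman and 518, 377 and 403 in saline, so that the groups overlapped (adjusted p = 0.331). Folr1, a folate receptor, had 0.963, 0.900 and 2.26 FPKM in soman and 4.33, 2.90 and 3.30 in saline (-0.96 ± 0.27, adjusted p = 0.0226). Soman replicates 1 and 2 were low and replicate 3 stood nearer to saline. No member passed without soman replicate 1 or without saline replicate 1.

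Cerebellar genes were lower in all soman libraries, most of all in replicate 1. Of 20 tested markers 19 were below saline in every soman library (18.7% of all genes were) and 5 fell (6.68%), with a median log2 change of -1.22. Their summed level was 180, 462 and 460 FPKM in the soman libraries and 841, 716 and 760 FPKM in saline. Itpr1, the calcium release channel that Purkinje cells hold in excess, had 55.7, 85.2 and 78.6 FPKM in soman and 166, 144 and 155 in saline (-1.09 ± 0.21, adjusted p = 0.00139). It passed under every alternative fit, those without replicate 1 included.

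Fat2, a granule cell cadherin, stood at 0.0275, 5.25 and 5.88 FPKM in soman and 17.7, 15.8 and 14.3 in saline. Gabra6, Pcp2 and Fat2 did not pass (adjusted p = 0.113, 0.178 and 0.0577), with standard errors of 1.09, 1.17 and 0.75 on the log2 scale. Rora, Slc1a6 and En2 were also among the 5 that fell, and without soman replicate 1 Itpr1 alone of the 20 did. The count was 8 without soman replicate 3, and 8 without all 3 libraries of the series that lack cerebellar transcripts, soman replicate 1 among them. Il16, Atp2a3 and Nrep, among the largest falls of the whole comparison, had the same order of libraries: Atp2a3, a calcium pump, stood at 1.74, 6.06 and 6.60 FPKM in soman and 15.2, 13.4 and 13.8 in saline. None of these 3 passed without soman replicate 1 (adjusted p = 0.289, 0.282 and 0.295). Whether less cerebellum in the samples accounts for these values was not tested.

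Other regional genes varied from library to library in their own way. Glra1, the glycine receptor subunit of hindbrain and spinal cord, had 0.461, 0.668 and 5.57 FPKM in soman and 7.95, 6.23 and 6.93 in saline (-1.67 ± 0.48, adjusted p = 0.0293). Here replicates 1 and 2 were low while replicate 3 was near saline. Syt2, a calcium sensor of fast-firing neurons, had 6.77, 12.7 and 24.3 FPKM in soman and 30.4, 26.5 and 29.0 in saline (-1.09 ± 0.31, adjusted p = 0.0273). Neither passed without soman replicate 1 (adjusted p of Glra1 0.249 and of Syt2 0.319). A list of 20 hindbrain and spinal cord genes, written after these values were seen, summed to 4.23, 3.88 and 43.3 FPKM in soman and 28.3, 21.2 and 23.8 FPKM in saline.

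Of 10 olfactory bulb markers 2 fell (6.68% of all genes did) and none rose. In every soman library 3 of the 10 lay below saline (18.7% of all genes did), and the median log2 change was -0.16. Eomes, a transcription factor of mitral cells, had 0.0975, 0.573 and 0.946 FPKM in soman and 1.75, 2.85 and 2.75 in saline (-1.19 ± 0.19, adjusted p = 0.0004). Reln, an extracellular guide of neuronal layers, had 7.43, 10.4 and 9.40 FPKM in soman and 17.1, 18.2 and 18.5 in saline (-0.92 ± 0.18, adjusted p = 0.00171). Eomes and Reln were lowest in soman replicate 1, which lacks cerebellar transcripts, and passed in limma without it (adjusted p = 0.0102 and 0.03). Doc2g and Cdhr1 overlapped with saline. Whether the falls of Eomes and Reln arise in the olfactory bulb or in another region was not tested. The pituitary hormone gene Gh had 2.70, 22.7 and 55.8 FPKM in soman and 6.18, 0 and 2.15 in saline (adjusted p = 0.0907). Prl, also of the pituitary, had 0.327, 2.72 and 3.79 FPKM in soman and 0.328, 0 and 0 in saline (1.39 ± 0.36, adjusted p = 0.014). The groups overlapped. Prl passed in 10 of 15 alternative fits, and not in a fit of the 2 groups alone (adjusted p = 0.103).

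**Figure D4:**
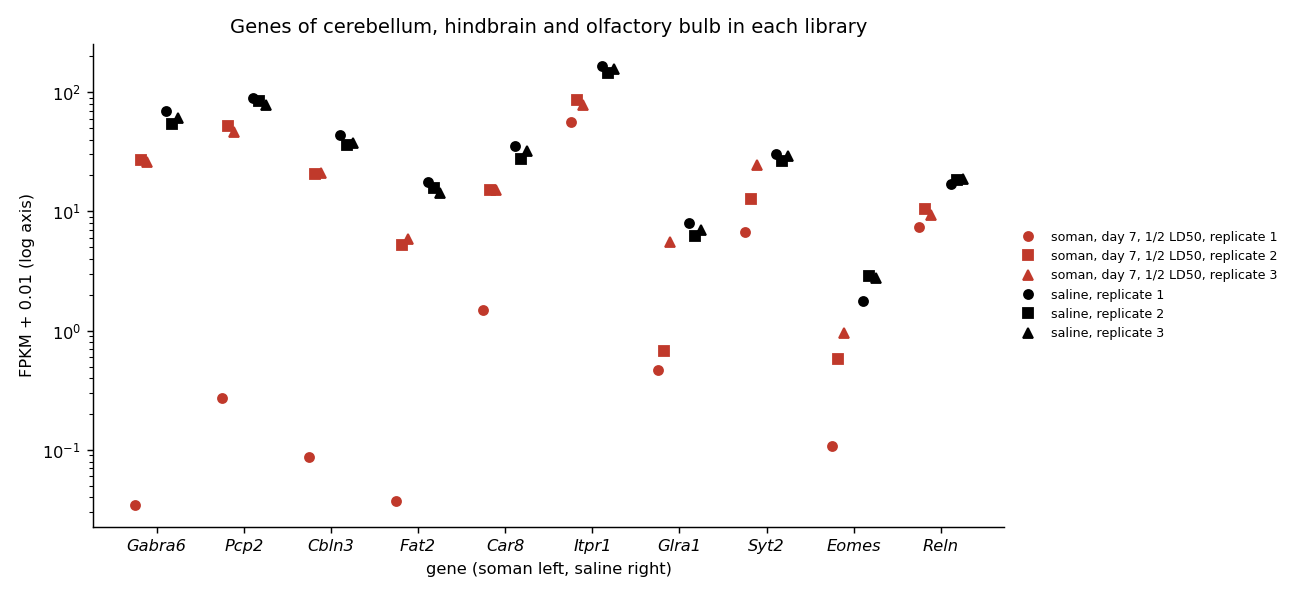
FPKM (plus 0.01, log axis) of genes of cerebellum (Gabra6 to Itpr1), of hindbrain (Glra1, Syt2) and from the olfactory bulb list (Eomes, Reln). Each day 7, 1/2 LD50 library (red, left) is shown beside each saline library (black, right), with a symbol for each replicate. Over the 10 tested members of the olfactory bulb list the median log2 change was -0.16. Replicate 1 of soman has 0.0247 FPKM of Gabra6, against 26.8 and 25.99 in the other soman libraries and 53.8 to 69.1 in saline.

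Long transcripts made up most of the falls. Genes that fell had a median transcript length of 6576 bases and genes that rose 2008.5 bases, against 3277 over all tested genes. Among the 2865 shortest genes 0.942% fell and 3.56% rose, and among the 2865 longest 23.4% fell and 0.558% rose. Lists with long members differed among themselves. Postsynaptic scaffold and plasticity genes, with a median length of 6326 bases, fell in 2 of 23 members, and of 13 nuclear-retained long noncoding RNAs, with a median of 5864 bases, 1 rose and none fell. Chromatin regulators, with a median length of 8950 bases, fell in 18 of 34 tested members and rose in none. Kmt2c, a histone H3 methyltransferase, had 5.85, 7.04 and 6.72 FPKM in soman and 10.2, 9.75 and 9.64 in saline (-0.53 ± 0.07, adjusted p = 0.000127). Hdac4, a class II histone deacetylase, had 5.12, 5.82 and 5.69 FPKM in soman and 7.13, 7.37 and 7.70 in saline (-0.36 ± 0.06, adjusted p = 0.000461). After removal of the length trend, 3 chromatin regulators fell (Kmt2c, Hdac4 and Chd2) and Tet2 rose. Without soman replicate 1 the count was 8.

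Voltage-gated sodium and calcium channels, with a median length of 7681 bases, fell in 10 of 26 members (38.5%). Of all genes 6.68% fell, and of the 2865 longest genes 23.4% did. Scn1a, the sodium channel of fast-spiking interneurons, had 13.9, 17.8 and 20.3 FPKM in soman and 25.2, 25.9 and 27.4 in saline (-0.58 ± 0.10, adjusted p = 0.000629). Scn2a, the sodium channel of excitatory neurons, had 25.3, 31.1 and 27.2 FPKM in soman and 37.2, 40.6 and 41.7 in saline (-0.50 ± 0.09, adjusted p = 0.00079). With the length trend removed Scn1a, Scn2a and Scn2b fell and Cacna1h rose. Without soman replicate 1, and without saline replicate 3, the count was 3. Of 40 potassium channels, with a median length of 5248 bases, 5 fell (12.5%), a share above that of all genes and below that of the 2865 longest. The count was 1 with the length trend removed and 1 without soman replicate 1.

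Short transcripts of the translation machinery were higher. Of 52 cytosolic ribosomal protein genes 14 rose (1.71% of all genes did) and none fell. In every soman library 47 were above all of saline (13.5% of all genes were), and the median log2 change was 0.35. Rpl27 had 101, 89.7 and 95.3 FPKM in soman and 76.1, 77.4 and 73.7 in saline (0.33 ± 0.06, adjusted p = 0.000832). Rps15 had 414, 343 and 350 FPKM in soman and 277, 274 and 246 in saline (0.47 ± 0.10, adjusted p = 0.00447), and did not pass without soman replicate 1 (adjusted p = 0.0705). With the length trend removed 6 rose, without soman replicate 1 2 rose, and without saline replicate 3 6 rose; with median-ratio scaling 23 rose. Ribosomal protein genes have many near-identical copies in the genome, so their values depend on how the authors assigned shared reads. The largest rise with a symbol, Sumo2, shares this doubt: it had 73.5, 80.045 and 75.4 FPKM in soman and 22.4, 21.1 and 24.3 in saline (1.71 ± 0.47, adjusted p = 0.0205; 0.0902 without soman replicate 1), but single libraries of other groups lay anywhere between 20.1 and 86.5 FPKM. The doubt about shared reads also holds for Rpl17, Rpl41, Magohb and Rps2-ps6 among the rises. Without soman replicate 1, Rps2-ps6 passed (adjusted p = 0.03), and Rpl17, Rpl41 and Magohb did not (adjusted p = 0.0765, 0.123 and 0.101). Of 13 messenger RNAs of the mitochondrial genome none passed in limma or in a fit of the 2 groups alone. In limma 11 had an unadjusted p below 0.05, all higher, beside 3563 of all 14701 genes in either direction. The median log2 change of the 13 was 0.64. Saline replicate 1 lay within the range of soman for several of them: COX1 had 8549, 8345 and 7917 FPKM in soman and 7764, 4544 and 5598 in saline.

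**Figure D5:**
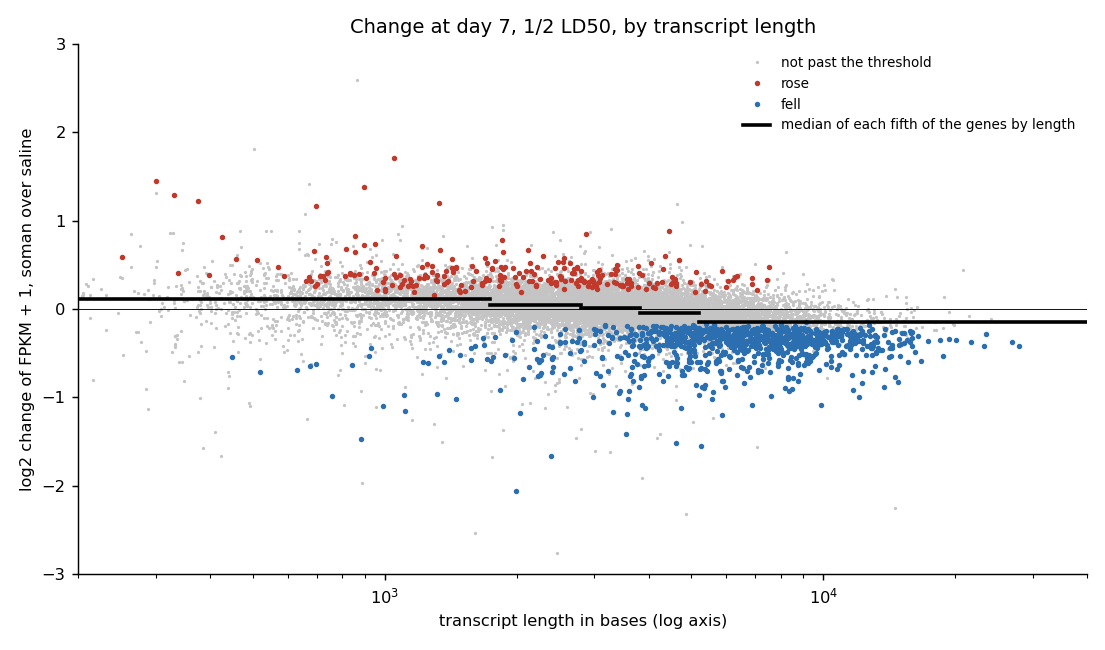
Log2 change of each of 14324 tested genes with a known transcript length (soman at day 7, 1/2 LD50, over saline; 3 libraries each) against transcript length, with genes that rose in red, genes that fell in blue and the medians of 5 equal groups by length as black lines. The axis runs from 200 to 40000 bases and leaves out 219 shorter and 2 longer genes. The medians run from 0.11 in the shortest group to -0.14 in the longest.

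Of 20 tested clock genes 3 fell (Per2, Cry1 and Clock) and none rose, while 6.68% of all genes fell and 1.71% rose. Per2, a repressor of the circadian loop, had 4.98, 4.88 and 4.27 FPKM in soman and 7.94, 8.53 and 8.31 in saline (-0.70 ± 0.12, adjusted p = 0.000641). It was also lower than at 1/5 LD50 of day 7, where it had 7.44, 11.0 and 7.59 FPKM (-0.74 ± 0.12, adjusted p = 0.00254), a difference that did not pass without replicate 2 of 1/5 LD50 (adjusted p = 0.0741). Cry1, its partner, had 5.22, 6.49 and 6.28 FPKM in soman and 9.47, 11.3 and 10.9 in saline (-0.73 ± 0.18, adjusted p = 0.00992). Clock, the activator of the loop, fell by 0.35 ± 0.07 (adjusted p = 0.00287). Without soman replicate 1, Per2 alone passed (adjusted p of Cry1 0.0934 and of Clock 0.0519). Per1, Dbp, Nr1d1 and Arntl did not pass. The labels give a light and dark cycle for housing but no hour of collection.

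Genes that respond to glucocorticoids and metals rose in part. Of 17 glucocorticoid-responsive genes 4 rose (1.71% of all genes did): Nfkbia, Mt2, Mt1 and Ddit4. Mt2, a metallothionein that binds zinc and copper, had 85.3, 90.6 and 93.7 FPKM in soman and 59.6, 62.8 and 60.5 in saline (0.55 ± 0.15, adjusted p = 0.0169). Nfkbia, the inhibitor of NF-kB, had 9.41, 8.58 and 9.83 FPKM in soman and 5.61, 6.94 and 6.45 in saline (0.49 ± 0.12, adjusted p = 0.0111). The receptor itself, Nr3c1, fell: it had 11.1, 13.5 and 12.7 FPKM in soman and 16.0, 14.9 and 16.5 in saline (-0.33 ± 0.07, adjusted p = 0.00209). The classical targets Fkbp5 and Tsc22d3 overlapped with saline. None of the 4 rises passed without soman replicate 1 or without saline replicate 1. Among 26 genes of the NRF2 and metal response, Slc7a11, the cystine transporter, fell by 0.61 ± 0.13 (adjusted p = 0.00275), and Fth1, the ferritin heavy chain, rose by 0.36 ± 0.11 (adjusted p = 0.0403), and did not pass without soman replicate 1 (adjusted p = 0.22).

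Microglial, astrocyte and myelin lists had few calls. Of 22 microglial markers none passed in limma or in a fit of the 2 groups alone. In limma 1 of the 22 had an unadjusted p below 0.05, beside 3563 of all 14701 genes. Among 16 tested reactive astrocyte genes 1 fell and none rose (6.68% of all genes fell and 1.71% rose). Of 22 myelin and oligodendrocyte markers 1 rose and 1 fell, beside the same shares of all genes. Opalin, a myelin membrane protein, rose by 0.43 ± 0.13 (adjusted p = 0.0419), and Enpp2, which the choroid plexus also expresses, fell by 0.76 ± 0.22 (adjusted p = 0.0301). Neither passed without soman replicate 1. Mbp, the main myelin protein, had 1284, 1227 and 2170 FPKM in soman and 1362, 1442 and 1434 in saline, with replicate 3 of soman above the rest. Of 21 interferon-stimulated genes 1 fell (6.68% of all genes did). In limma 13 had an unadjusted p below 0.05, all lower, beside 3563 of all 14701 genes in either direction. In every soman library 10 of the 21 lay below saline (18.7% of all genes did), with a median log2 change of -0.32.

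Day 7 and day 14 at 1/2 LD50 also differed in sterol synthesis. Of 22 tested genes of cholesterol synthesis and uptake 9 were higher at day 7 (2.97% of all genes were) and none lower (5.3%). In every day 7 library 15 were above all of day 14 (14.6% of all genes were). The median log2 difference was 0.28, against 0.01 over all genes. Mvd, an enzyme of the mevalonate pathway, had 14.4, 15.7 and 16.2 FPKM at day 7 and 10.4, 10.3 and 10.9 at day 14 (0.51 ± 0.11, adjusted p = 0.00597). Sqle, Fdps, Msmo1, Nsdhl, Dhcr7, Hmgcs1 and Insig1 were higher as well. The count was 4 without replicate 1 of day 7, 5 without its replicate 3, 3 without replicate 1 and 5 without replicate 2 of day 14, and 2 in a fit of the 2 groups alone. Against saline none of the 22 passed in limma or in a fit of the 2 groups alone. In limma 2 of the 22 had an unadjusted p below 0.05, beside 3563 of all 14701 genes.

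Inducible heat shock genes were lower at day 7 than at day 14. Hspa1b, the inducible cytosolic HSP70, had 1.68, 2.46 and 1.91 FPKM at day 7 and 6.46, 12.0 and 6.82 at day 14 (-1.61 ± 0.29, adjusted p = 0.0012). Its near-identical copy Hspa1a, with which it shares reads, had 2.29, 2.33 and 2.01 FPKM at day 7 and 4.92, 13.4 and 6.08 at day 14 (-1.40 ± 0.26, adjusted p = 0.00151). Dnajb1, Dnajb4 and Chordc1, co-chaperones of that system, were lower too, so that 5 of 22 heat shock genes were lower (5.3% of all genes were). The count was 3 without replicate 1 of day 7 and 2 without replicate 2 of day 14. Of 19 collagens 6 were higher at day 7 (2.97% of all genes were). Among them was Col4a2 of the vessel wall, with 16.2, 13.1 and 14.2 FPKM at day 7 and 11.2, 10.5 and 11.2 at day 14 (0.37 ± 0.07, adjusted p = 0.00177). The collagen count was 2 without replicate 1 of day 7 and 3 without its replicate 3. It was 3 without replicate 1 of day 14 and 2 without replicate 2 of day 14. Over all genes the 1216 differences from day 14 became 211 without replicate 1 of day 7, 728 without replicate 1 of day 14 and 333 without replicate 2 of day 14.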

How the data were processed

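Mouse brain RNA was captured on poly(dT) beads and sequenced, per the labels' protocols. The submitters' processing notes name HISAT2, without a version, and GRCh38, a human build, although the samples are from mice. The authors deposited FPKM values of 47561 genes in 39 libraries. The program behind them is not given in the sources used here, so read depth, and with it counting precision, is unknown.

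The labels gave the group of each library. The 14701 genes that reached 1 FPKM in 3 or more libraries entered the tests as log2(FPKM + 1), by limma 3.58.1 (R 4.3.3; lmFit, contrasts.fit, eBayes with trend) in 1 model of all 13 groups, with Benjamini-Hochberg adjustment over all tested genes and a threshold of 0.05. The 4 comparisons set 1/2 LD50 at day 7 against saline, 1/5 LD50 at day 7, and 1/2 LD50 at day 3 and day 14. The code was tested on simulated data.

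The 59 gene lists came from general knowledge, and members and lists were chosen with earlier results of these data known. Named genes were Ache, Bche, Chat, sex-linked genes, up to 14 largest rises and falls against saline and 5 in each other comparison (called, at 2 FPKM or more, groups not overlapping), and up to 4 members of smallest p per list with 2 or more calls. Other members named beside a list count were chosen after their values were seen. Transcript lengths came from GENCODE vM21, for 97.44% of tested genes, and promoters from RefSeq. Alternative settings comprised a pseudocount of 0.1, no filter, a mean of 5 FPKM or more, median-ratio scaling, a fit of only the 2 groups, a replicate block, removal of the length trend (lowess, span 0.5), leaving out 7 libraries that lie between others of their group, and each library left out in turn. Leaving out the 3 libraries that lack cerebellar transcripts, and the cerebellar marker level as a covariate, were added after seeing the data. Tables and figures used Python 3.11.15, numpy 2.4.6, pandas 2.3.3 and matplotlib 3.10.9. Values of a few list members are not reported here, although the list counts include them.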

Additional observations from a re-analysis of the deposited data

Results flagged for a closer look

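Levels at 1/2 LD50 of day 7 were set directly against those of other soman groups, in the model of all 13 groups, to which the saline libraries add only to the estimate of spread. Fits of the 2 groups alone gave 5 genes against 1/5 LD50, 1 against day 3 and 120 against day 14. Against 1/5 LD50 at day 7, 17 genes differed. The named ones among them had log2 differences of -1.26 (Sdf2l1), -0.86 (Creld2), -0.82 (Hspa5), -0.77 (Pdia4), -0.74 (Per2), 0.46 (Hecw2) and 0.41 (Pak5), with the 3 libraries of one dose on one side of the 3 of the other in each gene. Pak5 passed in 4 of 16 alternative fits.

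Against day 3 at the same dose, 13 genes differed, and the named ones had log2 differences of 1.52 (Arc), 1.37 (Fos), 1.23 (Nr4a1), 0.99 (Npas4) and 0.93 (Junb), all 3 libraries of day 7 above all 3 of day 3. Junb passed in 6 of 16 alternative fits and Npas4 in 5 of 15.

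Against day 14 at the same dose, 1216 genes differed. The largest named differences were 3.54 (Gh), 1.64 (Sumo2), 1.41 (Prl), 1.33 (Hba-a1) and 1.23 (Mir6955) among genes higher at day 7, and -2.12 (Gdf1), -1.61 (Hspa1b), -1.40 (Hspa1a), -1.14 (Sdf2l1) and -1.10 (Eomes) among those lower at day 7. Sumo2 passed in 7 of 16 alternative fits, Gh in 8 of 16, Gdf1 in 9 of 16 and Prl in 11 of 15. Hba-a1 passed in 14 of 16, Hspa1a and Eomes in 14 of 15, Mir6955 and Hspa1b in 15 of 15 and Sdf2l1 in 16 of 16. Without replicate 1 of day 7, Sumo2, Gdf1 and Hba-a1 did not pass (adjusted p = 0.11, 0.103 and 0.0645). Hba-a1, an alpha globin gene that shares reads with its copy, had 304, 362 and 251 FPKM at day 7 and 128, 144 and 92.9 at day 14. Gdf1, a growth factor gene, had 0.991, 0.969 and 1.27 FPKM at day 7 and 3.90, 10.9 and 11.5 at day 14, while saline lay at 2.38, 3.37 and 12.9. Summed pituitary markers, Gh and Prl included, stood at 6.38, 30.0 and 64.5 FPKM at day 7 and 3.49, 1.7 and 5.76 FPKM at day 14, and their part in the values of Gh and Prl was not tested. Groups of 3 libraries were too small for a search for outlying samples.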

How the results depend on the processing

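With a pseudocount of 0.1, no filter or the replicate block, the count against saline (1234) stayed within 1.5 times. The replicate numbers do not pair the samples (correlations -0.02, 0.06 and 0.00 of same-numbered libraries), and the block gave 1162, 13, 13 and 1109 genes against saline, 1/5 LD50, day 3 and day 14. The count against saline was 556 with only the 2 groups compared, 542 with the length trend removed (201 rose, 341 fell), 196 without the 7 libraries between others (17 rose, 179 fell), 421 without the 3 libraries that lack cerebellar transcripts and 279 with the cerebellar covariate, and 277 to 1437 with 1 library left out. The count against 1/5 LD50 (17) was 5 with only the 2 groups, 9 without the 7 libraries and 8 to 17 with 1 library left out. The count against day 3 (13) was 7 at a mean of 5 FPKM or more, 20 with median-ratio scaling, 1 with only the 2 groups, 21 with the length trend removed, 6 without the 7 libraries, 8 without the 3 libraries, 8 with the covariate and 4 to 26 with 1 library left out. The count against day 14 (1216) was 120 with only the 2 groups, 591 without the 7 libraries, 308 without the 3 libraries, 336 with the covariate and 211 to 1105 with 1 library left out. The cause of these moves was not tested, apart from fewer samples or genes in the fits that drop them. No named gene that passed reversed under any of these fits. Of 106 named genes that passed against saline, 34 passed without soman replicate 1 and 58 with the length trend removed. Depth is unknown, so counting error cannot be given.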

Other observations

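Interferon-stimulated and antigen presentation genes were compared between day 7 and day 3. At 1/2 LD50 none of 21 tested antigen presentation and guanylate-binding genes passed between day 7 and day 3 in limma or in a fit of the 2 groups alone. In limma 18 had an unadjusted p below 0.05, all lower at day 7, beside 1256 of all 14701 genes in either direction. The median log2 difference of the 21 was -0.998. In every day 7 library 14 of these 21, and 13 of 21 interferon-stimulated genes, lay below all 3 libraries of day 3 (12.3% of all genes did). The summed level of the antigen presentation list was 99.8 to 118 FPKM at day 7 and 130 to 542 FPKM at day 3. Gbp2, an interferon-induced GTPase, had 1.501, 1.28 and 1.49 FPKM at day 7 and 25.1, 2.12 and 3.61 at day 3. Cd74, the invariant chain of class II presentation, had 2.39, 2.69 and 3.23 FPKM at day 7 and 35.8, 2.85 and 2.65 at day 3, so that for Cd74 replicate 1 of day 3 alone was high, while for Gbp2 all 3 libraries of day 3 were higher.

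Saline libraries also differed among themselves in these genes. Irf7, a regulator of the interferon response, had 1.39, 1.26 and 1.18 FPKM at 1/2 LD50 of day 7 and 1.15, 4.97 and 3.20 in saline. Isg15, an interferon-induced modifier, was the member of its list of 21 that passed against saline (6.68% of all genes fell). It had 1.598, 1.44 and 0.598 FPKM in soman and 1.79, 5.15 and 3.57 in saline (log2 change -0.99 ± 0.24, adjusted p = 0.0104). Isg15 passed in 9 of 15 alternative fits, and not in a fit of the 2 groups alone (adjusted p = 0.097). Sst, the neuropeptide somatostatin, was the member of 26 tested neuropeptide genes that passed (1.71% of all genes rose). It had 169, 122 and 127 FPKM in soman and 100, 120 and 99.9 in saline (log2 change 0.37, adjusted p = 0.0476). Sst did not pass without soman replicate 1 (adjusted p = 0.412) or in a fit of the 2 groups alone (adjusted p = 0.14).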
